A study of Mus musculus with 3 samples.

Results

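Genes of the smooth muscle and myofibroblast contractile apparatus were followed through single cells of the mouse sciatic nerve: Acta2, Tagln, Myl9, Cnn1, Myh11, Tpm1, Tpm2, Actn1, Des and Lmod1. They are a list of names, and no threshold on a measured value chose them. The choice was made with earlier results of these data known. All 10 of them, of 21438 genes listed in all, were present in each of the 4 deposited count tables. Drop-seq was used, in which cells are captured in droplets and every transcript receives a barcode of its cell and a random tag of its own (UMI, unique molecular identifier). One library came from the distal stump of wild-type adult CD1 mice, taken 9 days after the nerve was resected and freed of myelin with removal beads (injured beads). A second injured library, from adult CD1 and C57BL/6 mice at the same 9 days, was sorted by FACS with a gate that is not given in the sources used here (injured FACS). The third came from uninjured nerve of wild-type adult CD1 mice, processed with beads, and holds only the cells that the authors predicted to be mesenchymal. How many mice went into each library is not given in the sources.

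Each group is 1 library, so conditions could not be tested against each other and p-values are absent. Values are CPM, the UMIs of a gene per 1000000 UMIs summed over the cells of a pool, with exact Poisson 95% intervals. Ratios carry exact conditional binomial 95% intervals and shares of cells exact Clopper-Pearson 95% intervals. All of these cover counting error only, and none covers differences between mice. A gene is called higher or lower by a rule of size: at least 50 CPM in one of the pools, at least a 2-fold ratio, and an interval that excludes 1. The libraries held 4300 barcodes and 10859939 UMIs (injured beads), 2000 barcodes and 7122377 UMIs (injured FACS), and 880 barcodes and 2169121 UMIs (uninjured mesenchymal cells). The authors' table of injured mesenchymal cells held 1289 barcodes and 4746263 UMIs. All of its barcodes recur in the injured beads library with 0 counts that differ, so it is a subset of that library and not a further sample. The injured beads and FACS libraries shared 1 barcode, and neither injured library shared any with the uninjured one.

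The products of these genes form one machine. Actin filaments built from smooth muscle alpha-actin (Acta2) slide against smooth muscle myosin, whose heavy chain is Myh11 and whose regulatory light chain is Myl9. Tropomyosins (Tpm1, Tpm2) run along the filament, calponin (Cnn1) and transgelin (Tagln) bind it, alpha-actinin 1 (Actn1) crosslinks it, leiomodin 1 (Lmod1) nucleates it, and desmin (Des) is the intermediate filament protein of muscle cells. In nerve, as in other tissues, vascular smooth muscle cells and pericytes, together called mural cells, carry this programme, and fibroblasts in healing wounds can take on part of it as myofibroblasts. Serum response factor drives many of these genes through the CArG box, and TEAD factors bind the sequence CATTCC.

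The genes lie at these positions on GRCm38, the assembly that mm10 names, per GENCODE vM21, which lists each as protein-coding. Acta2 spans chr19:34241090-34255590 on the minus strand, and Tagln spans chr9:45929619-45936058 on the minus strand. Myl9 spans chr2:156775420-156781658 on the plus strand, and Myh11 spans chr16:14194535-14291372 on the minus strand. Tpm1 spans chr9:67022590-67049406 and Tpm2 chr4:43514711-43523765, both on the minus strand. Cnn1 spans chr9:22099216-22109630 on the plus strand, and Actn1 spans chr12:80167547-80260371 on the minus strand. Des spans chr1:75360329-75368579 and Lmod1 chr1:135324807-135368065, both on the plus strand. Tagln overlaps the protein-coding gene Pcsk7 on the opposite strand, and whether the authors' counting used strand is not given in the sources used here, so reads of the overlap cannot be assigned to one gene with certainty. Actn1, Des and Lmod1 overlap noncoding genes only. Acta2 has close paralogs among the other actins, and how reads shared between them were counted is not given in the sources used here.

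Promoter sequence was available from RefSeq (GRCm38.p6) for 8 of the 10 genes, and the 250 bases before the annotated start were searched. The sequences below are shown because they hold elements that these factors are known to bind. A match is a description, and whether it bears on the levels was not tested. An exact CArG box was found before 1 of the 8 starts, that of Myl9, and in 1.47% of 32851 promoters of the same length. A CArG-like element, with 1 C or G among its central A or T letters, was found before 2 of 8, Acta2 and Myl9, against 7.24% of promoters. CATTCC, searched on both strands, was found before 3 of 8, Acta2, Tpm1 and Lmod1, against 12.6%. TATAAA, searched on the transcribed strand, was found before 0 of 8, against 7.59%. None of the matches printed here overlap one another. Each sequence runs 5′ to 3′ along the gene, with the element in capitals. The Myl9 stretch (chr2:156775214-156775419, plus strand) holds the CArG box first and the CArG-like element after it. The Acta2 windows (chr19:34255438-34255467 and chr19:34255388-34255417, minus strand) each hold a CArG-like element and lie within an exon that GENCODE annotates. The Tpm1 window (chr9:67049252-67049281, minus strand), also exonic in GENCODE, and the Lmod1 window (chr1:135324671-135324700, plus strand) hold CATTCC read on the other strand.
Myl9: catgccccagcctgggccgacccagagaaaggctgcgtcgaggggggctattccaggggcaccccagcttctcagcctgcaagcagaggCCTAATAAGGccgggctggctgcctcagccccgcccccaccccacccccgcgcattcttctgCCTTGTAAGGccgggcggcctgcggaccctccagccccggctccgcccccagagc
Acta2, farther window: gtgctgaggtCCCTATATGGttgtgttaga
Acta2, nearer window: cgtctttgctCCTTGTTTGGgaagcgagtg
Tpm1: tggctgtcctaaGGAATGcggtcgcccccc
Lmod1: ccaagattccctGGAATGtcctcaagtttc

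Mural cells carried most of the transcripts of 8 of the 10 genes in injured nerve. Cells of the injured beads library with at least 200 genes (4111 of 4300) were clustered without the 10 genes and without any gene of the contractile list, and clusters were named from markers that are none of them. This gave 255 mural-like cells (6.20% of cells), of which 182 were pericyte-like, with Rgs5 at 15502 CPM, 54 smooth muscle-like, and 19 without a narrower name. Those 255 cells held 85.5% of all Lmod1 UMIs in the clustered cells, 83.5% of Myh11, 80.1% of Cnn1, 79.6% of Acta2, 75.7% of Des, 72.7% of Myl9, 63.0% of Tpm2 and 56.8% of Tagln. They held 34.6% of Tpm1 UMIs and 14.9% of Actn1 UMIs, so most of these transcripts lay in other cells. Against the 1422 mesenchymal-like cells of the same library, all 10 genes were higher in mural-like cells, where 16% of 4612 genes were. The ratio was 296-fold for Myh11 (95% interval 219 to 411), 116-fold for Acta2 (103 to 131), 8.07-fold for Tpm1 (7.75 to 8.41) and 3.03-fold for Actn1 (2.65 to 3.46).

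The thin filament genes were highest in smooth muscle-like cells. Acta2 stood at 13418 CPM in smooth muscle-like cells and at 6687 CPM in pericyte-like cells (2.01-fold, 1.88 to 2.14). Tagln stood at 8299 and 3013 CPM (2.75-fold, 2.53 to 3.00), and Cnn1, whose product restrains myosin, at 516 and 144 CPM (3.59-fold, 2.45 to 5.25). Lmod1 stood at 2057 and 559 CPM (3.68-fold, 3.05 to 4.44). These 4 genes thus passed the rule between the 2 mural subclasses. The tropomyosins parted: Tpm2 stood at 7683 and 2488 CPM (3.09-fold, 2.82 to 3.39), while Tpm1 stood at 10437 and 8288 CPM (1.26-fold, 1.18 to 1.35) and did not pass. Of the myosin genes, Myh11, the defining heavy chain of smooth muscle, had the widest gap of the 10, at 7927 and 1642 CPM (4.83-fold, 4.36 to 5.35). Myl9 stood at 7375 and 3301 CPM (2.23-fold, 2.05 to 2.44). Actn1 (824 and 456 CPM, 1.81-fold, 1.39 to 2.33) and Des (761 and 546.5 CPM, 1.39-fold, 1.07 to 1.80) did not pass. In all, 7 of 10 genes were higher in smooth muscle-like cells, where 10.6% of 4565 genes were.

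The same order appeared in shares of cells. To compare classes of unequal depth, each cell with at least 1000 UMIs was thinned to 1000 UMIs. Of 41 thinned smooth muscle-like cells, 100% had a UMI of Acta2, of Myh11 and of Tpm1, 85.4% had Lmod1, 61.0% Des, 51.2% Actn1 and 26.8% Cnn1. Of 150 thinned pericyte-like cells, 81.3% had Acta2, 55.3% Myh11, 96.0% Tpm1, 29.3% Lmod1, 44.0% Des, 28.0% Actn1 and 8.67% Cnn1. Without thinning, the Acta2 shares were 94.4% and 84.1%, at median depths of 1790.5 and 2021 UMIs. In 130 thinned B cell-like cells, which should lack the programme (median 762 UMIs before thinning), the shares were 8.46% for Tpm1, 3.08% for Acta2, 2.31% for Tpm2 and at most 0.769% for the others. A thinned smooth muscle-like cell held UMIs of a median of 8 of the 10 genes, a pericyte-like cell of 6, and a B cell-like cell of 0.

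**Figure D1:**
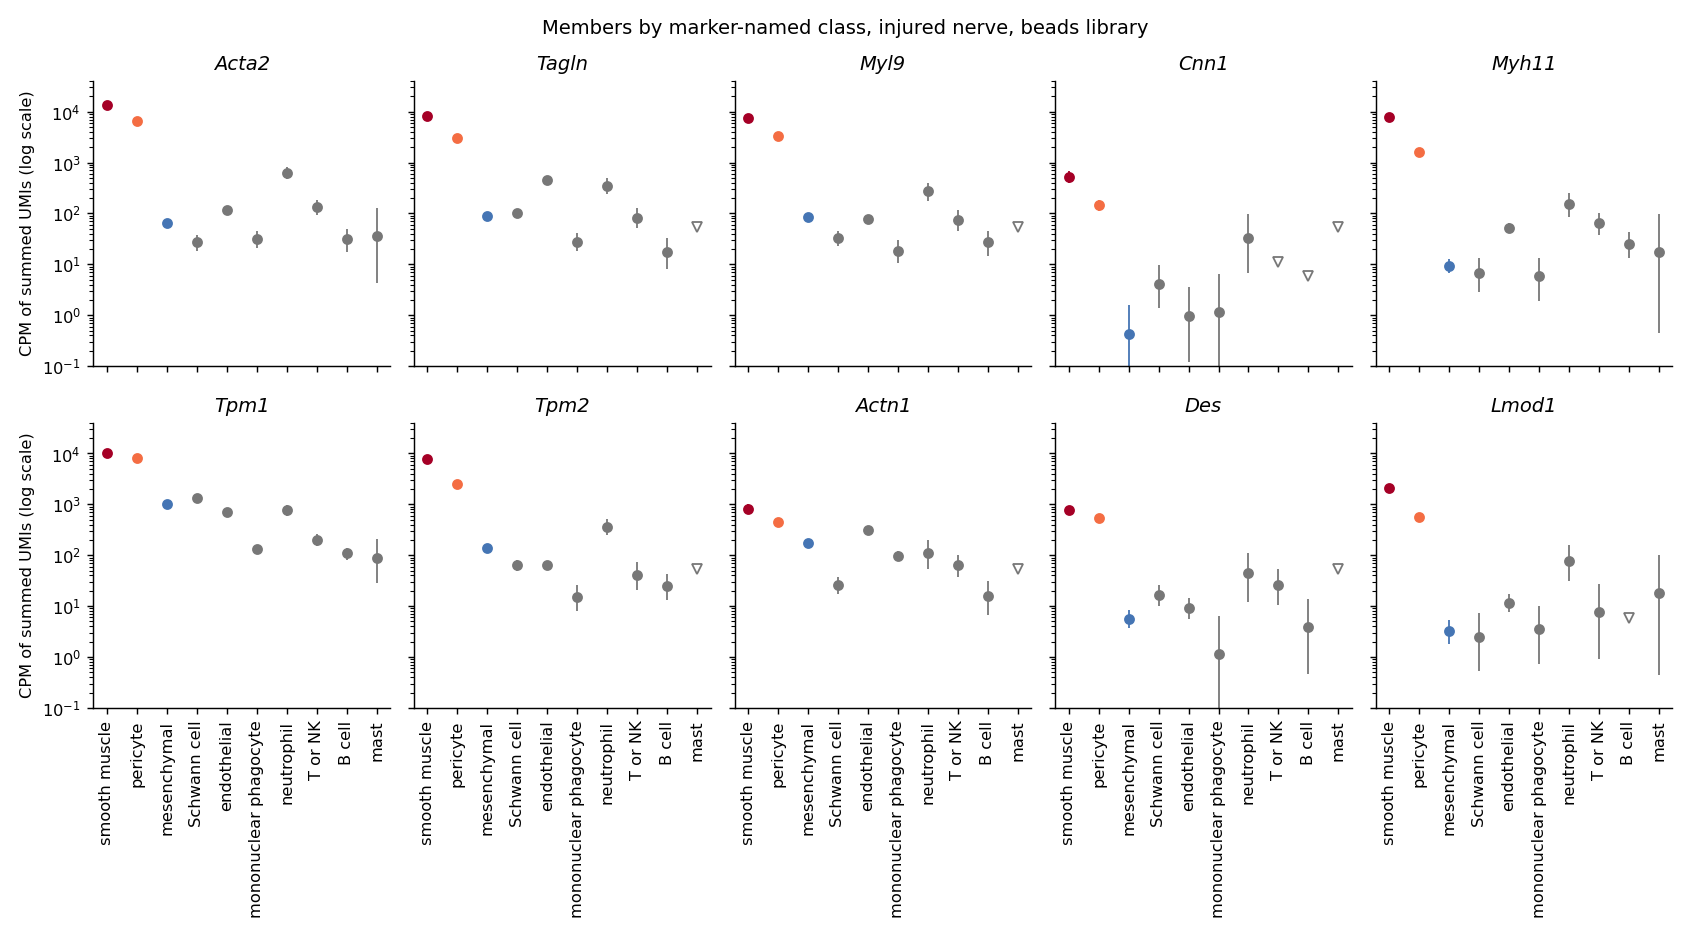
CPM (log axis) of the 10 genes in the 10 named cell classes of the injured beads library, with bars for exact Poisson 95% intervals and open triangles at the level of 3 counts where a class had no UMI. Every gene sits highest in smooth muscle-like cells and next in pericyte-like cells, and the Des intervals of those 2 classes overlap.

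Outside the mural clusters the genes separated. Tpm1 and Actn1, which many non-muscle cells use in their cytoskeleton, were spread over several classes. Tpm1 stood at 1343 CPM in Schwann cell-like cells (465 cells), 1021 in mesenchymal-like cells and 714 in endothelial-like cells (576 cells), and those 3 intervals do not overlap. Actn1 stood at 316 CPM in endothelial-like cells, 173 in mesenchymal-like cells and 26.0 in Schwann cell-like cells, again without overlap. Tagln was also endothelial, at 455 CPM (426 to 485), with a UMI in 23.9% of thinned endothelial-like cells against 3.87% of thinned mesenchymal-like cells. Acta2 stood at 118 CPM in endothelial-like cells and 65.8 in mesenchymal-like cells. Of its 242 endothelial-like UMIs, 60 came from 1 barcode with 81 mural-marker UMIs, without which the level was 89.5 CPM. The other 6 genes stood between 0.978 CPM (Cnn1) and 78.7 CPM (Myl9) in endothelial-like cells.

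Single barcodes held many of the UMIs behind some levels outside the mural clusters. Acta2 stood at 634 CPM in neutrophil-like cells (127 cells), but 38 of its 58 UMIs came from a single barcode that also carried 92 UMIs of mural markers, and without that barcode the level was 227 CPM. In T or NK-like cells 20 of 35 Acta2 UMIs came from 1 barcode with 167 mural-marker UMIs. Of 20 Des UMIs in Schwann cell-like cells, 19 came from 1 barcode. A cluster of 120 cells led by genes of dividing cells, left without a name, had Acta2 at 708 CPM, with 113 of 417 UMIs in 1 barcode. Without that barcode its level was 520 CPM. No doublet caller was run, so barcodes that hold 2 cells remain in every class, and their part in these levels was not tested.

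The FACS library had no mural cluster at the same resolution. Of its 1914 cells with at least 200 genes, 961 were mesenchymal-like, 706 mononuclear phagocyte-like and 83 endothelial-like. Its endothelial-like cells stood at 637 CPM of Acta2 (551 to 732), 469 of Myl9 and 129 of Des, with Rgs5, a pericyte marker, at 2373 CPM. At a finer resolution of 1.6, a cluster of 16 mural-like cells split off, with Acta2 at 4339 CPM (3681 to 5081), Tpm1 at 4818, Myl9 at 3156, Tagln at 1831, Des at 1043, Myh11 at 535 and Lmod1 at 310. Endothelial-like cells without them stood at 156 CPM of Acta2 and 10.9 of Des, while Tagln (214 CPM) and Actn1 (298 CPM) stayed on. Cnn1 had 0 UMIs in those 16 cells, which allows up to 84.5 CPM.

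Among mesenchymal cells, Tpm1 and Actn1 differed from Myl9 in the direction of their injured to uninjured ratio. Tpm1 and Actn1 were higher in the 1289 injured than in the 880 uninjured mesenchymal cells, and Myl9 was lower. Of the 10 genes, 6 reached 50 CPM in a pool, so 2 of 6 were higher and 1 was lower, where 8.17% of 3964 genes were higher and 7.14% lower. The median log2 ratio of the 6 was 0.43, against 0.20 over all 3964 genes.

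Tpm1 was at 367 CPM (797 UMIs) in uninjured, 1029 CPM (4884 UMIs) in injured beads and 703 CPM (3167 UMIs) in FACS mesenchymal-like cells. Both injured libraries were therefore above the uninjured one, by 2.80-fold with beads (2.60 to 3.02) and by 1.91-fold with FACS (1.77 to 2.07), the latter short of the rule. Tpm2 was at 72.4 CPM in uninjured, 143 in injured beads and 113 in FACS cells. It followed the same order with ratios of 1.98 (1.66 to 2.37) and 1.56 (1.31 to 1.88), neither past 2-fold. Actn1 was at 50.3 CPM (109 UMIs) in uninjured, 185 CPM (877 UMIs) in injured beads and 203 CPM (915 UMIs) in FACS cells. It was the only one of the 10 that passed the rule upward in both injured libraries, at 3.68-fold (3.01 to 4.53) and 4.04-fold (3.31 to 4.98). Both comparisons use the same uninjured library. The FACS cells also differ from it in isolation and strain, and they were named here by clusters and not by the authors. In the FACS ratios these differences cannot be told apart from injury. The beads ratios also compare 1 library with 1 library, so differences between mice or preparations cannot be told apart from injury there either.

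Myl9 was at 195 CPM (424 UMIs) in uninjured, 83.4 CPM (396 UMIs) in injured beads and 58.2 CPM (262 UMIs) in FACS cells. It was lower in both injured libraries, at log2 ratios of -1.23 (-1.43 to -1.03) and -1.75 (-1.98 to -1.52). Acta2, the usual marker of myofibroblasts, was at 97.3 CPM in uninjured, 62.6 in injured beads and 32.0 in FACS cells. It passed the rule downward with FACS (log2 -1.60, -1.92 to -1.29) but not with beads (log2 -0.64, -0.90 to -0.37). Tagln was at 96.8 CPM in uninjured and 89.1 in injured beads cells, with an interval of the log2 ratio (-0.36 to 0.13) that includes 0. In FACS cells Tagln was at 10.9 CPM, lower at log2 -3.15 (-3.63 to -2.70). Of the 210 uninjured Tagln UMIs, 161 lay in perineurial-like cells, a subclass described below. The 12 perineurial markers summed to 800 CPM in uninjured and 426 in FACS cells. FACS cells were not split by subclass, so the part of the perineurial-like share in this ratio was not tested. With FACS 1 of 6 genes was higher and 3 were lower, where 10.9% of 3949 genes were higher and 8.2% lower.

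The other 4 genes, which are the most restricted to muscle, stayed below 50 CPM in every mesenchymal pool. Myh11 was at 26.7 CPM (58 UMIs) in uninjured, 5.90 (28 UMIs) in injured beads and 0.888 (4 UMIs) in FACS cells. Lmod1 was at 11.5 CPM (25 UMIs), 3.16 (15 UMIs) and 0 UMIs, the last of which allows up to 0.666 CPM. The 95% interval of the FACS to uninjured ratio of Lmod1 ended at 0.0766. Des was at 5.07, 5.48 and 3.33 CPM, and Cnn1 had 3, 2 and 3 UMIs. Of the uninjured Myh11 UMIs, 21 of 58 came from 1 barcode of 3669 UMIs, which also held 41 of the 211 Acta2 UMIs and 34 UMIs of mural markers. Without that barcode Myh11 was at 17.1 and Acta2 at 78.5 CPM.

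**Figure D2:**
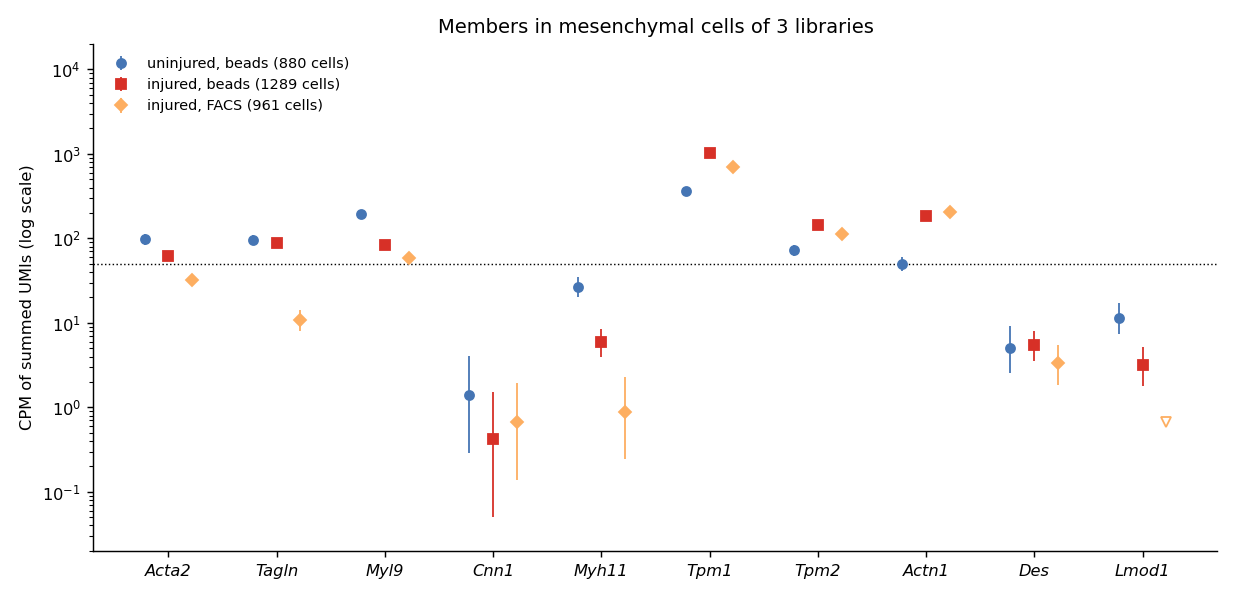
CPM (log axis) of the 10 genes in uninjured, injured beads and FACS mesenchymal cells, 1 library each, with exact Poisson 95% intervals and a dotted line at 50 CPM. Tpm1, Tpm2 and Actn1 lie above the uninjured value in both injured libraries, Acta2, Myl9 and Myh11 lie below it, and the Tagln value with beads is near it.

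The summed mural marker lists fell in the same order as Myl9, Acta2 and Myh11. Tpm1, Tpm2 and Actn1 did not follow that order. The 14 pericyte markers summed to 917 CPM in uninjured, 534 in injured beads and 407 in FACS mesenchymal cells, with all 14 detected in each. The 15 smooth muscle markers summed to 318, 144 and 135 CPM, with Rergl and Kcnmb1 at 0 in uninjured and Pln and Rergl at 0 in FACS cells. Rgs5 moved differently, at 24.4, 66.6 and 9.55 CPM. The erythroid markers, all 4 of them haemoglobin genes, summed to 1608 CPM in uninjured cells, 111 in injured beads and 0.888 in FACS cells, and adipocyte markers to 6.45, 5.48 and 271. The 21 mononuclear phagocyte markers summed to 38.3 CPM in uninjured (11 detected), 468 in injured beads and 1566 in FACS cells (all 21 detected in both), and the 11 Schwann cell markers to 774, 248 and 311. When every cell with 2 or more mural-marker UMIs was left out, which removed 612 injured and 499 uninjured cells, Myl9 stayed lower (log2 -1.09) and Acta2 stood at -0.11. In that setting 4 genes were higher, Tagln, Tpm1, Tpm2 and Actn1, and the log2 ratio of Tagln turned from -0.12 to 1.42. Perineurial-like cells, a subclass described below, carry some of these markers themselves and held 161 of the 210 uninjured Tagln UMIs. How many of them this setting removed was not counted, so it does not single out mural signal. With at most 2 UMIs of any other class's markers per cell, which removed 929 injured and 750 uninjured cells, Myl9 no longer passed (-0.72) and Acta2 stood at 0.18. The part of erythroid, adipocyte, phagocyte or Schwann cell markers alone was not tested.

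Shares of cells showed the same order for 4 genes. After thinning, 50.1% of 974 injured and 21.9% of 761 uninjured mesenchymal cells had a UMI of Tpm1, against 8.46% of B cell-like cells. Actn1 was seen in 15.2% and 4.07%, and Tpm2 in 10.4% and 4.34%. Myl9 was seen in 7.60% of injured and 15.6% of uninjured cells, and Acta2 in 4.11% and 6.70%. The Acta2 shares lie close to the 3.08% of B cell-like cells. Without thinning, at median depths of 2798 and 2102.5 UMIs, the shares were 67.3% and 37.8% for Tpm1, 33.4% and 8.30% for Actn1, 18.8% and 29.1% for Myl9, and 12.3% and 11.2% for Acta2. The Acta2 order thus turned with depth, and no difference in the share of Acta2-positive cells is read from it.

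**Figure D3:**
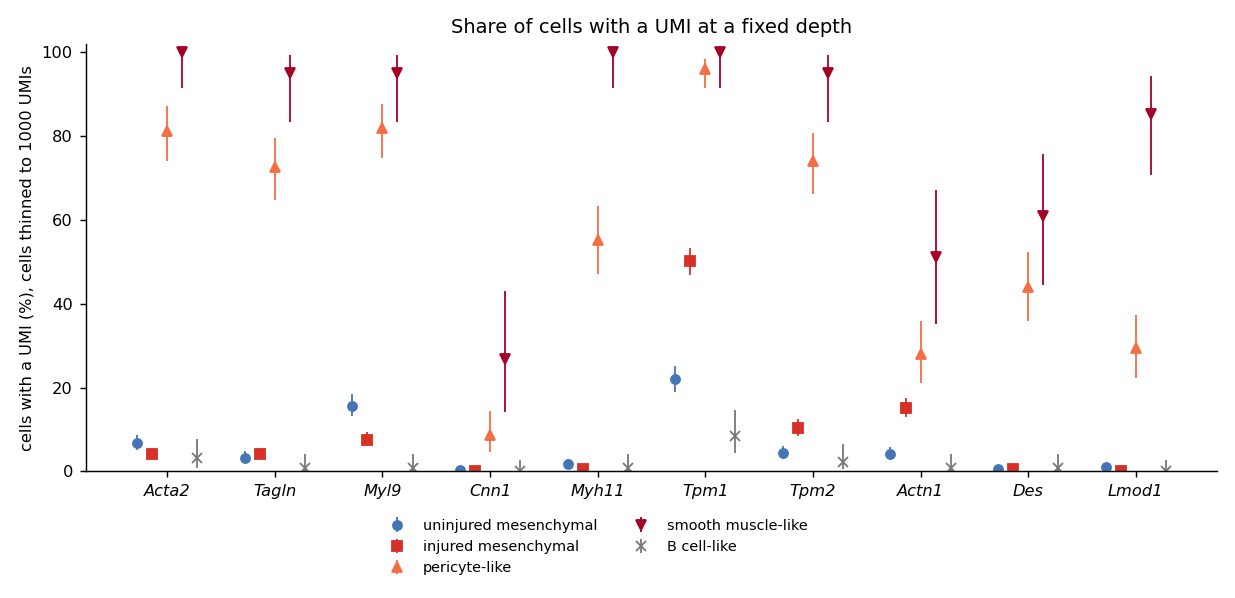
Share of cells (percent) with at least 1 UMI of each gene after thinning to 1000 UMIs, in injured and uninjured mesenchymal, smooth muscle-like, pericyte-like and B cell-like cells, with exact binomial 95% intervals. Tpm1 is seen in 50.1% of injured and 21.9% of uninjured mesenchymal cells, and of these groups, all 10 genes are seen most often in the mural classes.

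Ratios of injured to uninjured cells differed between mesenchymal subclasses. The authors' mesenchymal cells of both conditions were clustered jointly, again without the 10 genes, and clusters were named from subclass markers. Endoneurial-like cells, the fibroblasts inside the fascicles, numbered 248 injured and 426 uninjured, and epineurial-like cells, those of the outer sheath, 202 and 382. Perineurial-like cells, which wrap each fascicle, numbered 72 and 66, and differentiating-like cells, named from Dlk1, Postn, Tnc and other markers, 660 and 5. A further 107 injured and 1 uninjured cell had no name. Because the last 2 groups are nearly all injured, a pooled difference mixes levels within a subclass with the shares of the subclasses. With endoneurial-, epineurial- and perineurial-like cells at the same weight and the others left out, no gene passed the rule, and the log2 ratios were 0.50 for Tpm1, 0.0054 for Actn1 and -0.79 for Myl9. That setting averages CPM, so the subclass with the highest level weighs most. For uninjured Actn1 this was the perineurial-like pool, at 376 CPM against 18.0 in endoneurial-like and 38.5 in epineurial-like cells. Without the perineurial-like cells alone, an alternative added after the data were seen, 3 genes were higher (Tpm1, Tpm2 at 1.24 and Actn1 at 2.67), and Tagln stood at 1.0001 with under 50 CPM in both pools.

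Endoneurial-like cells showed the pooled pattern with a wider spread. Tpm1 stood at 279 CPM in uninjured and 1160 in injured endoneurial-like cells (4.16-fold, 3.69 to 4.71). Tpm2 stood at 54.9 and 119.5 CPM (2.18-fold, 1.63 to 2.95), and Actn1 at 18.0 and 71.7 CPM (3.98-fold, 2.47 to 6.76). These 3 were higher, and Myl9 and Acta2 were lower. Myl9 stood at 185 CPM in uninjured and 34.3 in injured endoneurial-like cells (log2 -2.43, -2.89 to -2.0007), and Acta2 at 54.0 and 22.7 CPM (log2 -1.25, -1.88 to -0.64). All 5 genes that reached 50 CPM there passed the rule, where 10.8% of 3723 genes were higher and 9.43% lower. Acta2 did so on 60 uninjured UMIs, close to the minimum of 50 CPM, and leaving out its top cell was not tried in this subclass. The injured cells were deeper, with a median of 6159.5 UMIs against 2182.5. The pericyte markers summed to 435 CPM in injured and 697.5 in uninjured endoneurial-like cells. The phagocyte markers summed to 337 CPM in injured and 18.9 in uninjured ones, the Schwann cell markers to 174 and 830, and the erythroid markers to 119.5 and 1096. The part of these markers in the levels of the 5 genes was not tested.

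Epineurial-like cells did not show it. Tpm1 stood at 306 CPM in uninjured and 339 in injured epineurial-like cells (1.11-fold, 0.899 to 1.36), and Actn1 at 38.5 and 36.1 CPM. Acta2 alone passed the rule, at 94.6 and 26.5 CPM (log2 -1.84, -2.89 to -0.93), where 4.07% of 3829 genes were higher and 2.12% lower. The barcode with 41 Acta2 UMIs described above was one of the uninjured epineurial-like cells, and without it their level was 49.7 CPM, so that Acta2, at a ratio of 0.532 (0.248 to 1.05), no longer passed and 0 of the 10 genes were lower. Myl9 stood at 169 and 93.8 CPM (log2 -0.85, -1.40 to -0.34) and did not pass.

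Perineurial-like cells had the highest levels of 6 of the 10 genes among mesenchymal subclasses of the uninjured library. In uninjured nerve they stood at 1164 CPM of Tagln, against 24.1 in the other mesenchymal cells (48.2-fold, 34.8 to 67.8), and at 376 against 28.1 CPM of Actn1 (13.4-fold, 9.02 to 19.9). Acta2 was 6.54-fold (4.80 to 8.81), Tpm2 5.90-fold (4.08 to 8.41), Tpm1 5.18-fold (4.40 to 6.08) and Myl9 2.56-fold (1.93 to 3.36) higher. Of 4726 genes, 24.9% were higher in this comparison. One barcode of 4987 UMIs held 29 of the 65 Acta2 UMIs of the perineurial-like pool, 43 of its 161 Tagln UMIs and 16 of its 63 Myl9 UMIs, besides 16 UMIs of mural markers. That marker share is not above the pool's, where 323 pericyte-marker and 198 smooth muscle-marker UMIs stood among 138333. Without that barcode Myl9 stood at 352 CPM (1.98-fold, 1.43 to 2.69) and no longer passed the rule, and Acta2 stood at 270.0 CPM (3.76-fold, 2.53 to 5.44). Acta2, Tagln, Tpm1, Tpm2 and Actn1 passed without it. These 66 cells, with 6.38% of the UMIs of the uninjured mesenchymal table, held 161 of its 210 Tagln UMIs (76.7%). Cnn1, Des and Lmod1 had 0 UMIs and Myh11 had 2. Because 0 UMIs allow up to 21.7 CPM, above the 1.48 CPM of Cnn1, 5.42 of Des and 12.3 of Lmod1 in the other uninjured mesenchymal cells, a difference in these 3 genes was not detectable.

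For the 6 genes that reached 50 CPM, perineurial-like levels of injured and uninjured nerve lay within 2-fold of each other. Tagln stood at 979 CPM in injured and 1164 in uninjured perineurial-like cells (log2 -0.25, -0.56 to 0.06), and Acta2 at 355 and 470 CPM (log2 -0.40, -0.90 to 0.10). Tpm1 stood at 1449 and 1504 CPM (log2 -0.05, -0.31 to 0.21), and Tpm2 at 427 and 325 CPM (log2 0.39, -0.14 to 0.94). Myl9 (341 and 455 CPM) and Actn1 (326 and 376 CPM) also had intervals that include 0. None of the 10 genes passed the rule, where 5.64% of 4823 genes were higher and 7.92% lower, and changes within these intervals were not detectable with 72 and 66 cells. The ratios also turned on single barcodes. Without the uninjured cell with most Acta2 UMIs, Acta2 stood at 1.31-fold (0.872 to 2.02) and Tpm2 at 1.73-fold (1.15 to 2.66). Without the injured one, Acta2 stood at 0.645-fold (0.447 to 0.929) and Tagln at 0.678-fold (0.541 to 0.850). Again no gene passed the rule in either setting. Against the other injured mesenchymal cells, 4 genes were higher in perineurial-like cells, where 14.3% of 4496 genes were. These were Tagln (20.3-fold, 16.7 to 24.7), Acta2 (7.22-fold, 5.48 to 9.44), Myl9 (4.76-fold, 3.63 to 6.16) and Tpm2 (3.28-fold, 2.59 to 4.10), while Tpm1 (1.43-fold) and Actn1 (1.83-fold) did not pass.

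The summed mural marker lists were higher in perineurial-like cells than in endoneurial-like and epineurial-like cells. Of the 14 pericyte markers 11 were detected in the injured and 9 in the uninjured perineurial-like pool, summing to 1722 and 2335 CPM, against 435 and 697.5 CPM in endoneurial-like cells. Of the 15 smooth muscle markers 6 and 8 were detected, summing to 916 and 1431 CPM, against 122 and 222 CPM. Epineurial-like cells lay between, with pericyte markers at 907 CPM in injured and 973 in uninjured ones, and smooth muscle markers at 224 and 266 CPM. Among the markers detected, Wfdc1 stood at 470 and 911 CPM and Vtn at 326 and 730 CPM in injured and uninjured perineurial-like cells. Higd1b, Pln and Map3k7cl had 0 UMIs in both perineurial-like pools, and Rgs5 stood at 24.0 CPM in injured and 43.4 in uninjured ones, against 15502 CPM in pericyte-like cells. The part of mural markers in the perineurial-like levels was not tested. All 12 perineurial markers were detected in the injured pool and 11 of 12 in the uninjured one. A thinned perineurial-like cell held UMIs of a median of 1 of the 10 genes, and 15.5% of injured and 13.7% of uninjured ones held 4 or more, against 80.7% of pericyte-like cells.

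Differentiating-like cells held most of the Actn1 of injured mesenchymal cells. Their 660 cells, with 50.5% of the UMIs, held 670 of 877 Actn1 UMIs (76.4%), at 280 CPM (259 to 302). Tpm1 stood at 1029 CPM and Tpm2 at 156.5 CPM there, Myl9 at 92.3, Tagln at 81.0 and Acta2 at 71.0. Myh11, Des, Lmod1 and Cnn1 stood at 4.59, 8.35, 2.50 and 0.835 CPM. In uninjured endoneurial-like and epineurial-like cells Tpm1 stood at 279 and 306 CPM, Tagln at 17.1 and 33.0 CPM, and Acta2 at 54.0 and 94.6 CPM. In injured endoneurial-like and epineurial-like cells Tpm1 stood at 1160 and 339 CPM, Tagln at 4.90 and 26.5 CPM, and Acta2 at 22.7 and 26.5 CPM. Uninjured nerve gave 5 differentiating-like cells, too few for a ratio.

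**Figure D4:**
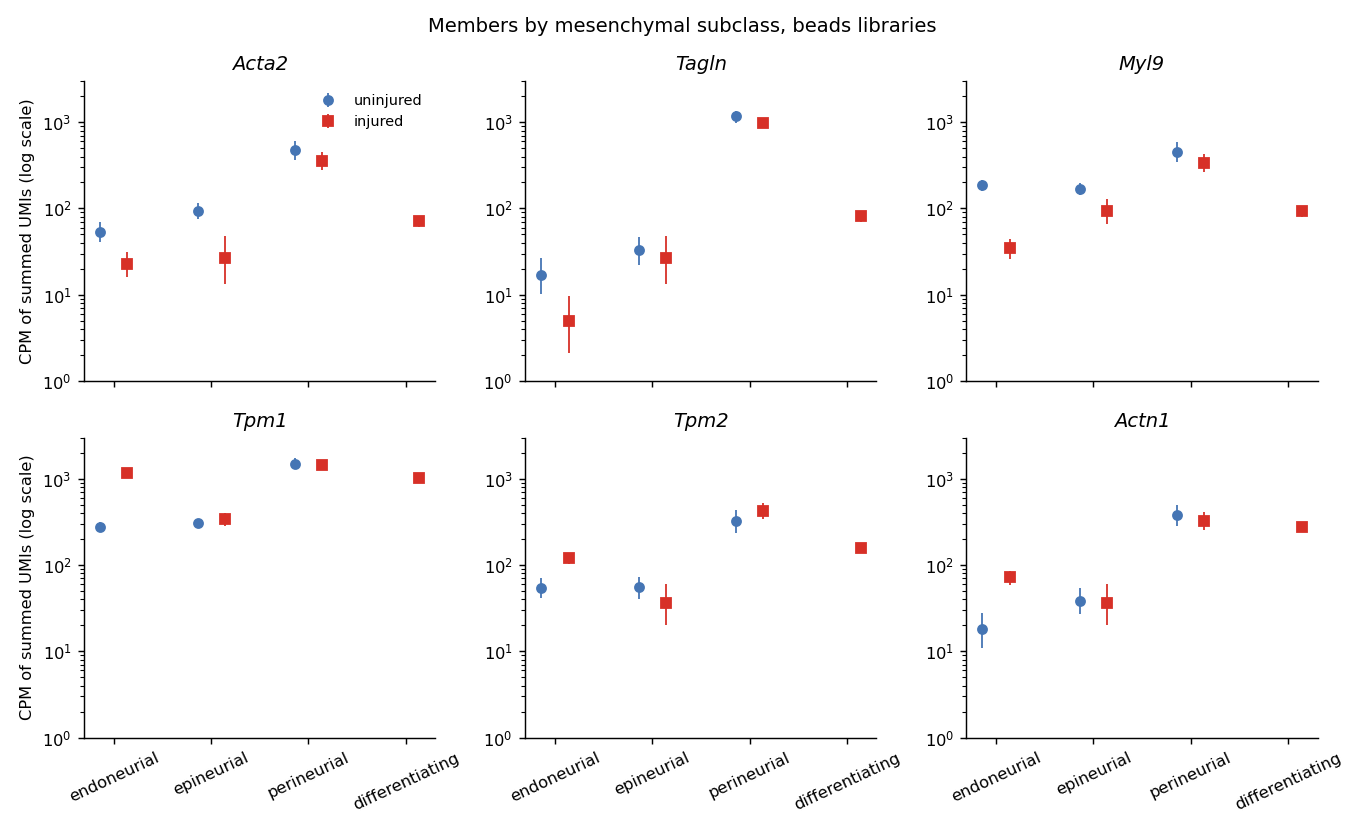
CPM (log axis) of the 6 genes that reached 50 CPM, in 4 mesenchymal subclasses of injured and uninjured nerve, with exact Poisson 95% intervals. Injured and uninjured perineurial-like points lie close together for every gene, and endoneurial-like Tpm1 lies at 279 CPM in uninjured and 1160 CPM in injured nerve.

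**Figure D5:**
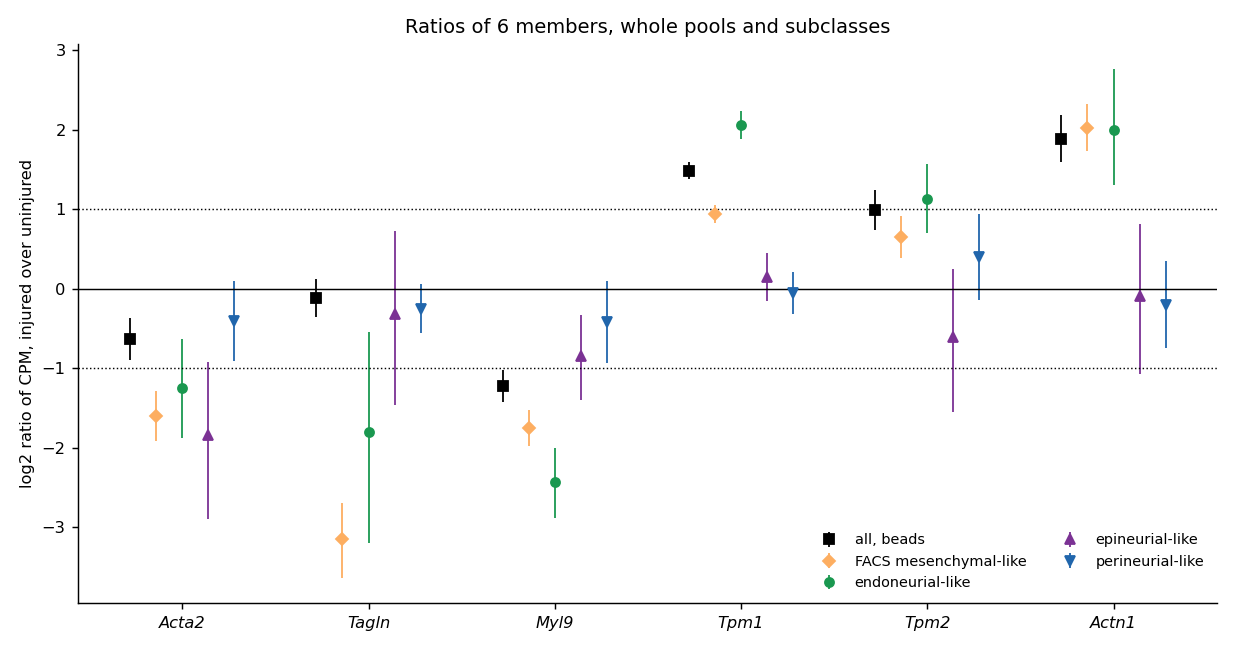
Log2 ratio of injured over uninjured CPM for the same 6 genes, with exact 95% intervals, for all mesenchymal cells (beads and FACS) and within 3 subclasses, with dotted lines at -1 and 1. Tpm1 and Actn1 lie above 0 in the pooled and endoneurial-like comparisons and their intervals cross 0 in the epineurial-like and perineurial-like ones.

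Other genes of the pathway were read from 3 lists. These too were chosen with earlier results of these data known, so their counts are descriptions and not independent results. In the contractile and serum response factor list 33 of 46 genes reached 50 CPM, and 4 were higher and 2 lower in injured mesenchymal cells (median log2 0.31, against 0.20 over all genes). These counts are near the 8.17% higher and 7.14% lower of all 3964 genes. Higher were Palld, which bundles actin (log2 1.91, 1.54 to 2.31), Tagln2, the non-muscle relative of Tagln (1.24), Fhl2, a LIM cofactor (1.18), and Pdlim7 (1.10). Lower were Mylk, the kinase that phosphorylates the product of Myl9 (-1.16, -1.40 to -0.92), and smoothelin, Smtn (-1.04, -1.27 to -0.81). With FACS, 5 were higher, among them Palld at 1.85, and 5 lower, where 10.9% and 8.2% of all genes were.

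Of the regulators, 10 of 21 reached 50 CPM, and 3 were higher and 1 lower (median log2 0.003), beside the same 8.17% and 7.14% of all genes. Higher were Tead1, one of the TEAD factors (1.52), the ligand Tgfb3 (1.19) and its receptor Tgfbr2 (1.01). Klf4, known as a repressor of smooth muscle genes, was lower, at 883 CPM in uninjured and 274 in injured cells (log2 -1.69, -1.79 to -1.58). Srf stood at 28.1 and 31.4 CPM, and Myocd, its cofactor in smooth muscle, had 0 and 1 UMIs. Other scalings moved the log2 ratio of every gene by -0.12 (DESeq2 size factors) or -0.13 (TMM), and over the 3 lists the counts then went from 20 higher and 3 lower to 16 higher and 6 lower under each.

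The matrix list moved further than the contractile genes did. Of its 30 genes 26 reached 50 CPM, and 13 were higher and 0 lower (median log2 0.97), where 8.17% of all genes were higher and 7.14% lower. The widest were Tnc (7.21), Cthrc1 (4.26), Timp1 (3.85), Postn (2.83), Cdh11 (2.80), Thy1 and Col11a1 (both 1.97), Col12a1 (1.56), Col8a1 (1.40), Ctgf (1.18), Loxl2 (1.15) and Lox (1.02). Postn, Tnc and Cthrc1 were also among the markers that named the differentiating-like cells. At the other end Pdgfra stood at log2 -0.83 and did not pass. With FACS 8 were higher and 1 lower, where 10.9% and 8.2% of all genes were. Tnc, Postn and Cthrc1 are often used beside Acta2 as markers of activated fibroblasts. Acta2 was not higher in the pooled mesenchymal cells of either injured library, and its levels by subclass are given above.

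Across the 10 named classes of the injured beads library the 10 genes were high and low in much the same classes. Pearson's r of log2(CPM + 10) between 2 of them ranged from 0.68 (Actn1 and Lmod1) to 0.99 (Myl9 and Tpm2), over 10 classes that share 1 library. Most like Acta2 among 8206 other genes were Map3k7cl (r = 0.98), Trpc6, Cox4i2, Olfr558 and Ppp1r14a, of which Map3k7cl, Cox4i2 and Olfr558 are markers that named the mural classes. Most like Tpm1 were Cald1 (r = 0.98), Ptpla, St5, Ndrg2 and Adcy6, and most like Actn1 were Gadd45g (r = 0.94), Tmem140, Crim1, Zak and Pls3. These are descriptions over 10 points and carry no test.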

How the data were processed

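Per the labels' protocols, nerves were digested enzymatically, and Drop-seq libraries were made from FACS-sorted cells or from cells freed of myelin with beads. The authors deposited 4 tables of raw UMI counts, as whole numbers for every gene in every cell, on build mm10 per the submitters' processing notes. The sources used here give no aligner, no counting tool and no definition of a mesenchymal cell. Each group is 1 library, and its total of UMIs sets the precision of each interval.

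Barcodes with at least 200 genes were kept. Clustering used 2000 variable genes, 30 principal components (20 within mural cells), 15 neighbours and Leiden resolution 0.8, leaving out the 10 genes and the contractile list. Clusters were named "-like" where the mean enrichment of the class's markers scored at least 1 with a margin of 1 over the next class (0.5 within mural cells), with at least 3 markers in 5% of cells, and where its 10 leading genes did not hold more markers of a different class. A cluster whose median UMI count was under 1/3 of its library's, with no own marker among those genes, stayed unnamed. H2-Aa, H2-Ab1 and Cd74 were left out of the count of leading genes, and macrophage and dendritic lists were joined. The scoring rule was set after the data were seen, and a difference from the study's own cell types may come from these rebuilt names. No doublet caller was run. UMIs were summed per pool and scaled to CPM. The size rule was applied to all genes, with a floor of 10 CPM in the mean of both pools, and a pool at 0 was read against 3 counts. Genes named from the 3 lists are those past the rule, up to 12 a list by size, and the extremes each way. For Acta2, Tpm1 and Actn1 the 5 most correlated genes are named. The members and lists were chosen with earlier results of these data known. The code was tested on simulated data.

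Alternatives covered scaling (DESeq2 1.42.0 size factors and edgeR 4.0.16 TMM factors of the pools, R 4.3.3), the floor, the fold, the weight of cells and subclasses, the cells kept, the clustering resolution, a minimum of 500 genes, and thinning to 500 UMIs. Python 3.11.15 was used with numpy 2.4.6, scipy 1.17.1, scanpy 1.11.5, leidenalg 0.10.2 and igraph 0.11.9.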

Additional observations from a re-analysis of the deposited data

How the results depend on the processing

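No paired analysis was possible because each group is 1 library, and for the same reason no library could be left out. All 10 genes were highest in mural cells with at least 500 genes per barcode, at resolutions 0.4 and 1.6, and with the 10 genes kept in the clustering. The counts of 3 higher and 2 lower in endoneurial-like cells were the same at both resolutions, as were the FACS counts of 1 higher and 3 lower under both scalings.

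Between injured and uninjured mesenchymal cells the count of 2 higher genes became 4 with at most 2 UMIs of other classes' markers per cell, 4 without cells holding 2 or more mural-marker UMIs, and 0 when 3 subclasses were weighted equally. The count of 1 lower gene became 3 with no minimum level (Myl9, Myh11 and Lmod1), 2 at 1.5-fold (Acta2 and Myl9), 0 with at most 2 UMIs of other classes' markers and 0 when weighted equally. Equal weighting averaged CPM, so for the genes that reached 50 CPM the high perineurial-like levels weighed most in it. Of the pathway lists, 3 genes were lower by total UMIs and 6 under DESeq2 size factors and 6 under TMM. The log2 ratio of Tagln turned to 2.12 with at most 2 UMIs of other classes' markers and to 1.42 without cells holding 2 or more mural-marker UMIs; these settings keep fewer cells, and the cause was not tested. After the data were seen, 3 alternatives were added on the cells kept: without perineurial-like cells, without cells with a UMI of 8 mural markers, and without the top 1% of cells by the 10 genes. Each gave 3 higher genes and 1 lower (Myl9). Also added was leaving out the cell with most Acta2 UMIs in either pool of the epineurial-like and perineurial-like comparisons: without the uninjured epineurial-like one, the count of 1 lower gene became 0, and without the uninjured perineurial-like one, the count of 6 higher than in other mesenchymal cells became 5. Over all settings, FACS included, log2 ratios ranged from 0.50 to 1.93 for Tpm1, from 0.0054 to 3.44 for Actn1, from -1.75 to -0.72 for Myl9 and from -1.60 to 0.18 for Acta2. Depth limits Cnn1, Des, Lmod1 and Myh11 in mesenchymal cells, where counts were 2 to 58 UMIs per beads library.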
